A study of Mus musculus with 8 samples.

Results

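In a mouse model of basal cell carcinoma, Lrig1-positive skin cells carrying the stem cell receptor Lgr5 were compared with Lgr5-negative ones of the same mouse. The aim was to find the expression differences kept in untreated and in vismodegib-treated animals. The series holds 8 Affymetrix mouse arrays from 4 mice of the genotype K14-CreER/Ptch1cKO, and all 8 were used. Each mouse gave an Lgr5+Lrig1+ array and an Lgr5-negative array, spelled Lrg5-Lrig1+ in the labels. Of the mice, 2 were Untreated and 2 had Vismodegib, an inhibitor of the Hedgehog receptor component Smoothened. Every group, controls included, carries the Ptch1 deletion, placed by a Cre recombinase driven from the keratin 14 promoter of basal epithelial cells. Both populations were sorted as Lrig1-positive from the epidermis of back skin, by a GFP reporter at Lgr5 and an antibody to Lrig1. Sorting by these markers does not by itself separate tumour cells from other epidermal cells. The labels give no age, dose or length of treatment, and do not say whether mice shared a litter or a day. The RNA was amplified as cDNA before labelling.

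The gap of a gene is its log2 signal in the Lgr5-positive array minus that in the Lgr5-negative array of the same mouse, so that a gap of 1 is a doubling. Of 14403 genes tested, 4366 (30.3%) had a gap of the same sign in all 4 mice. These were 2202 genes (15.3%) higher in Lgr5-positive cells and 2164 genes (15%) lower. The sign alone sets no size, and the median absolute mean gap of the 4366 genes was 0.36. The smallest gap inside was −4e-05, in 1 untreated mouse for Ooep, and the smallest opposite gap just outside was 0.00013, in 1 vismodegib mouse for Spdl1 and for Usp46.

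Lgr5 is a receptor for R-spondins, which keep Wnt receptors at the cell surface, and it marks cycling and resting stem cells of the lower hair follicle. Lrig1 restrains epidermal growth factor receptors and marks stem cells of the upper follicle. Basal cell carcinomas are driven by Hedgehog signalling: loss of Ptch1 frees Smoothened, and Gli transcription factors then turn on targets that include Ptch1 and Gli1 themselves.

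A gene was called when limma's moderated test of its 4 gaps gave an adjusted p under 0.05 over all genes tested. Each SE printed here is limma's moderated one, which draws the spread of a gene toward that of all genes. It can be larger or smaller than the plain SE of the 4 gaps. On this test 128 genes (0.889%) were higher and 139 genes (0.965%) were lower in Lgr5-positive cells. All 267 (1.85%) had the same sign in every mouse, which adds no support, since the test at this threshold hardly calls a gene of mixed sign. The mean gap reached 1 for 70 of the higher and 74 of the lower genes. At an unadjusted p under 0.05 there were 1358 higher (9.43%) and 1893 lower genes (13.1%). After Lgr5, the called higher genes with the largest mean gaps were Abi3bp, Krt75, Fras1, Krtap17-1 and Shisa2. The called lower genes with the largest mean gaps were Il1r2, Slc6a20a, Pbk, Stil and Dnase1l3. The calls rest on all 4 mice. Without untreated mouse 1, 2 genes were called higher and 0 lower. Without untreated mouse 2 the counts were 2 and 1, without vismodegib mouse 1 they were 7 and 1, and without vismodegib mouse 2 they were 56 and 133. Fras1 and Krtap17-1 were called whichever mouse was left out, and Il1r2 lost its call only without untreated mouse 1.

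Lgr5 itself had a log2 signal of 10.98 and 11.00 in the untreated Lgr5-positive arrays and 8.52 and 8.40 in their negative partners. After vismodegib it was 9.44 and 10.03 in the positive and 5.46 and 4.83 in the negative arrays. Positive and negative arrays did not overlap, and the mean gap of 3.56 ± 0.46 (SE, n = 4 mice, adjusted p = 0.0314) was set by the sort. Lrig1, on which both populations were selected, had gaps of 0.76, 0.81, 0.39 and 0.02, a mean of 0.50 ± 0.15 (SE, n = 4 mice, adjusted p = 0.142) that did not pass the test. The mean signal of the 14 tested keratinocyte markers lay between 11.3 and 11.61 over the arrays, where the median of all values was 6.16.

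**Figure D1:**
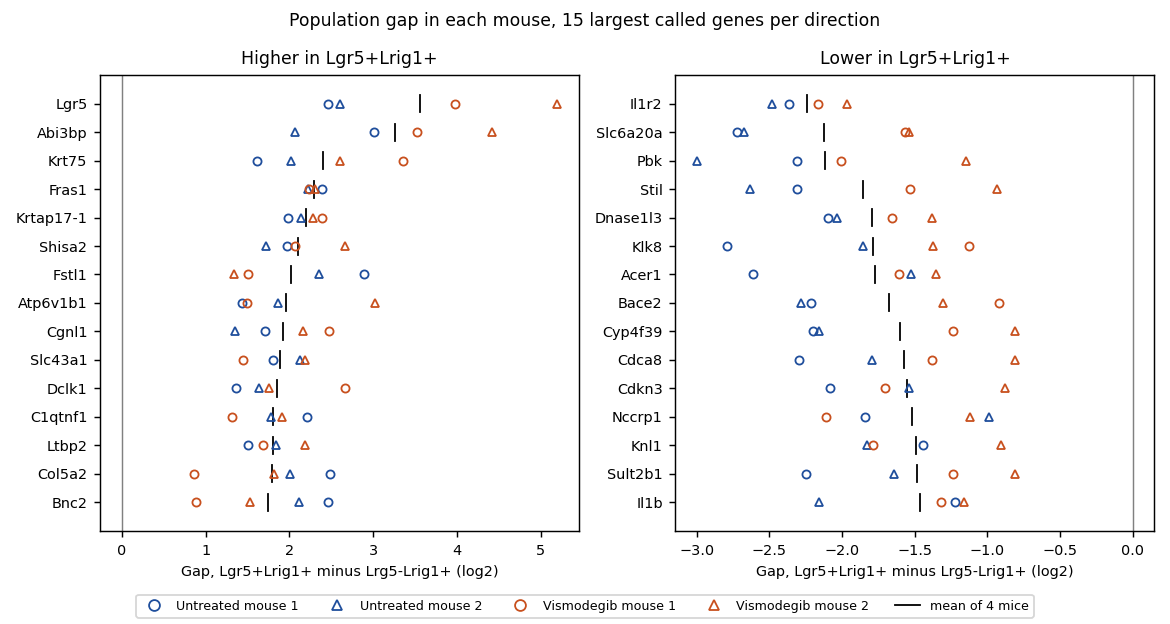
Gap in log2 units (horizontal axis) in each of the 4 mice for the 15 called genes with the largest mean gap in each direction, circles and triangles for mice 1 and 2 of a treatment, blue for Untreated and orange for Vismodegib, with a bar at the mean. Every point lies on the same side of 0 as its gene's mean, because only genes of kept sign were drawn. Fras1 shows the closest points, between 2.22 and 2.39.

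Genes of the extracellular matrix and the basement membrane, the sheet on which epithelial cells rest, were among the largest positive gaps. In the list of 31 tested basement membrane, integrin and laminin genes, 5 were higher, none was lower, and 26 did not pass the test. Over all genes, 0.889% were higher and 0.965% lower. The sign was kept as higher by 20 members and as lower by 2, against 15.3% and 15% of all genes, and the median gap was 0.38 against 0.01 over all genes. The 5 genes were Fras1, Frem2, Col4a1, Nid1 and Col4a5. Fras1 and Frem2 encode partners in the Fraser protein complex beneath embryonic epithelia, Col4a1 and Col4a5 are chains of the basement membrane collagen IV, and Nid1 links collagen IV to laminin.

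Fras1 measured 10.27 and 9.95 in untreated Lgr5-positive arrays and 7.88 and 7.72 in the negative ones. After vismodegib it measured 7.82 and 7.78 against 5.59 and 5.47. The level was thus lower in both populations of the treated mice, and vismodegib Lgr5-positive arrays overlapped untreated Lgr5-negative arrays, while the gap was 2.39, 2.22, 2.23 and 2.31. Its mean gap was 2.29 ± 0.09 (SE, n = 4 mice), 4.89-fold, with an adjusted p of 0.00263, and the gap change between treatments was −0.04. Frem2 had gaps of 1.30, 1.16, 1.52 and 0.99, with a mean of 1.24 ± 0.12 (SE, n = 4 mice, adjusted p = 0.0201). Col4a1 measured 11.53 and 11.46 against 10.84 and 10.28 in untreated mice, and 9.51 and 9.87 against 8.88 and 8.72 after vismodegib. Its mean gap of 0.91 ± 0.13 (SE, n = 4 mice) passed with an adjusted p of 0.0405, as did those of Nid1 (0.75) and Col4a5 (0.54). With all probe sets of a gene averaged, Col4a1 had an adjusted p of 0.0571 and lost its call.

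Of 23 tested fibrillar and matricellular matrix genes, 4 were higher and 2 lower, against 0.889% and 0.965% of all genes. The sign was kept higher by 14 and lower by 3, against 15.3% and 15%. Abi3bp, a secreted matrix protein, had the largest gap after Lgr5 among the called genes. It measured 8.94 and 8.02 in untreated Lgr5-positive arrays against 5.92 and 5.96, and 9.95 and 9.95 after vismodegib against 6.43 and 5.53. The positive arrays were all above the negative ones, and the mean gap was 3.25 ± 0.35 (SE, n = 4 mice), 9.54-fold, with an adjusted p of 0.0263. Its probe set is of a type that can bind related transcripts. The other higher members were Col6a1 (mean gap 1.56, with 3 of its 4 negative values under 4.85, the level used to filter dim genes), Igfbp5, which binds insulin-like growth factors (1.31, with all 4 negative values under that level), and the matrix glycoprotein Fbln1 (0.66). The microfibril component Fbn2 (−1.42) and the matricellular protein Thbs2 (−0.88) were lower. Sparc, a collagen-binding protein, had a mean gap of 1.89 but an adjusted p of 0.0687. Outside the list, the fibrillar collagen chain Col5a2 was higher by 1.80 ± 0.25 (SE, n = 4 mice, adjusted p = 0.0388), with gaps of 2.49, 2.01, 0.86 and 1.82.

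Fibroblasts also make many of these matrix proteins. Of the fibroblast markers, 10 were tested and Corin, Dpt, Lum, Mfap5, Pdgfra and Sox2 were dim on all arrays. The mean of the tested markers lay between 6 and 6.24 on every array. None was called. At an unadjusted p under 0.05 in limma, 3 of the 10 were higher and 0 lower, against 9.43% and 13.1% of all genes. A positive sign was kept by 5 of the 10 (Col1a1, Dcn, Twist2, Rspo3 and Pdgfrb) and a negative one by 0, against 15.3% and 15% of all genes. The part of fibroblasts in the matrix result was not tested. In sorted bulk cells, fewer cells of a type and less RNA per cell cannot be told apart.

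Of 21 tested transcription factors of hair follicle stem cells, 3 were higher, 0 lower and 18 did not pass, where 0.889% of all genes were higher. The sign was kept higher by 11 members and lower by none, against 15.3% and 15% of all genes, and the median gap was 0.56 against 0.01. By mouse, the median gap of the list was 0.87 and 0.70 in untreated mice but 0.15 and 0.18 after vismodegib. At an unadjusted p under 0.05 the counts were 11 and 0, against 9.43% and 13.1% of all genes. Lhx2, a LIM-homeodomain factor that maintains follicle stem cells, measured 10.67 and 10.75 against 8.57 and 8.37 in untreated mice. After vismodegib it measured 7.41 and 7.86 against 6.63 and 6.35. Treated positive arrays lay below the untreated negative ones, yet the gap was positive in each mouse, with a mean of 1.69 ± 0.26 (SE, n = 4 mice, adjusted p = 0.0445). Runx1, which drives follicle stem cell activation, was higher by 0.92 ± 0.12 (SE, n = 4 mice, adjusted p = 0.0348), and the forkhead factor Foxp1, tied to stem cell quiescence, by 0.88 ± 0.11 (SE, n = 4 mice, adjusted p = 0.0305). With all probe sets averaged, Runx1 lost its call, at an adjusted p of 0.0664.

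In the 22 tested bulge and outer root sheath genes, Krt75 and Lgr5, on which the cells were sorted, were higher and none was lower. The sign was kept higher by 6 members and lower by 3. Over all genes, 0.889% were called higher and 0.965% lower, 15.3% were kept higher and 15% lower. Krt75, a keratin of the companion layer of the follicle, measured 7.98 and 7.75 against 6.37 and 5.72 in untreated mice, and 7.76 and 7.42 against 4.41 and 4.82 after vismodegib. Positive arrays did not overlap negative ones, and both negative values after vismodegib lay under 4.85. The mean gap was 2.40 ± 0.28 (SE, n = 4 mice), 5.26-fold, with an adjusted p of 0.0268. The hair keratin-associated protein Krtap17-1 had gaps of 1.98, 2.14, 2.39 and 2.29, a mean of 2.20 ± 0.11 (SE, n = 4 mice, adjusted p = 0.00442). Its level lay between 7.89 and 10.57 in untreated arrays and between 4.93 and 7.33 in treated ones, a difference not tested here. Among 18 hair germ genes, the adhesion molecule Ncam1 was higher (1.36, though with an adjusted p of 0.0526 without the mouse as a block), with 5 members kept higher and 3 kept lower. Of 14 upper follicle and infundibulum genes, Lgr6 was higher and none was lower. The sign was kept lower by 7 and higher by 2, and the median gap was −0.54. By mouse it was −1.13 and −0.79 in untreated mice but −0.06 and −0.29 after vismodegib.

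**Figure D2:**
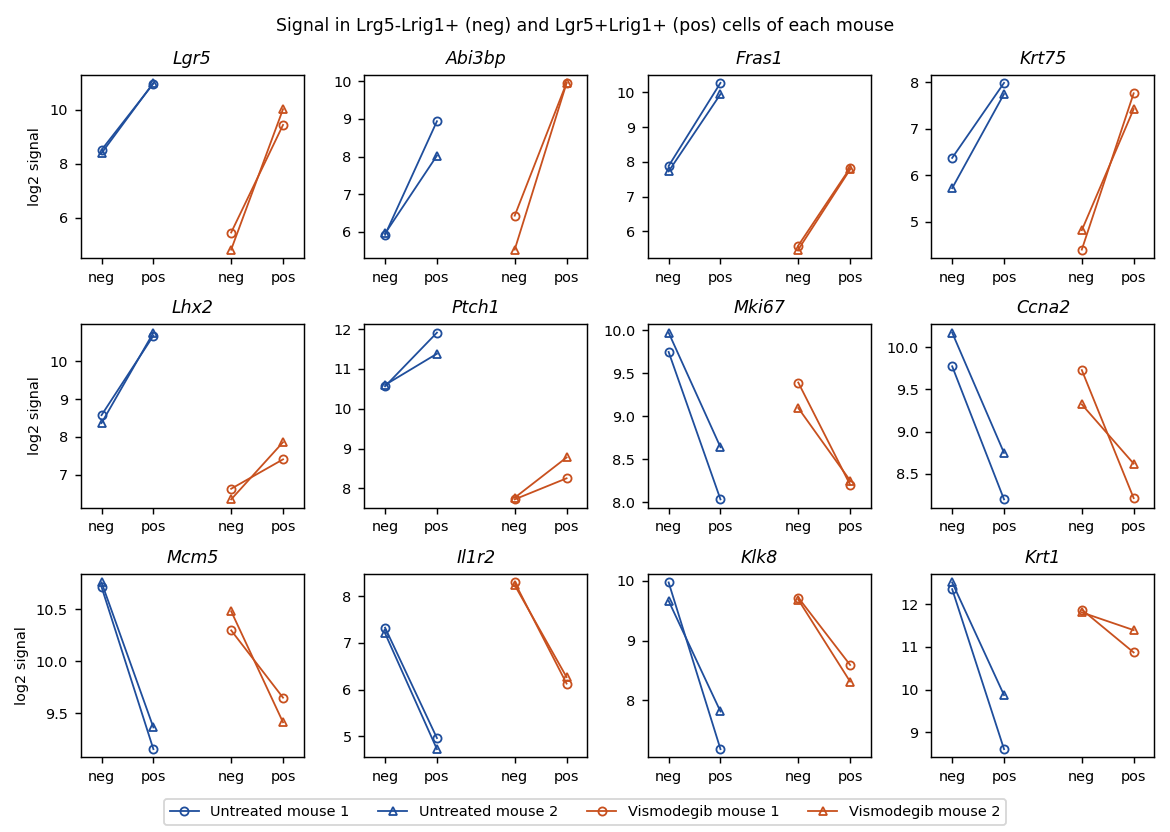
Log2 signal (vertical axes, which do not start at 0) of 12 genes in the Lrg5-Lrig1+ (neg) and Lgr5+Lrig1+ (pos) arrays, a line joining both arrays of a mouse, blue for Untreated and orange for Vismodegib. Fras1, Lhx2 and Ptch1 are lower in both populations of the treated mice while each line still rises, and the lines of Mki67, Ccna2, Mcm5 and Il1r2 fall in all 4 mice.

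Of 22 tested Wnt receptors and transducers, 4 were higher, 0 lower and 18 did not pass, against 0.889% higher and 0.965% lower over all genes. The sign was kept higher by 12 and lower by 1, against 15.3% and 15%. One of the 4 is Lgr5, on which the cells were sorted. The others were Fzd2, a Frizzled receptor, Lgr6, a relative of Lgr5, and Ror2, a co-receptor of Wnt5a. Lgr6 measured 11.16 and 11.49 against 9.92 and 9.75 in untreated mice, and 10.21 and 10.66 against 9.53 and 9.72 after vismodegib. Its gap was positive in each mouse, with a mean of 1.15 ± 0.18 (SE, n = 4 mice, adjusted p = 0.045). Fzd2 was higher by 1.31 ± 0.21 (SE, n = 4 mice, adjusted p = 0.0474) and Ror2 by 0.82 ± 0.14 (SE, n = 4 mice, adjusted p = 0.049). After cyclic loess between arrays the adjusted p was 0.0519 for Fzd2 and 0.0559 for Ror2. Ror2 also lost its call with a robust prior (0.0511) and with every probe set tested (0.051).

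Of 16 tested Wnt feedback targets and secreted inhibitors, Wif1 and Dkk3 were higher and none was lower, against 0.889% and 0.965% of all genes. The sign was kept higher by 7 and lower by none, against 15.3% and 15%. Wif1 binds Wnt ligands outside the cell. It measured 10.24 and 10.26 against 9.32 and 9.16 in untreated mice, and 7.71 and 8.28 against 5.57 and 5.86 after vismodegib. The gap was larger in the treated mice, 2.14 and 2.42 against 0.92 and 1.09. Its mean was 1.64 ± 0.27 (SE, n = 4 mice, adjusted p = 0.0494), and the change of 1.27 ± 0.20 (SE, n = 2 mice a treatment) passed limma's test at an adjusted p of 0.0359. With a robust prior the mean gap of Wif1 lost its call, at an adjusted p of 0.0517. Dkk3, of the Dickkopf family, was higher by 1.05. Outside the lists, Shisa2, which holds Wnt and fibroblast growth factor receptors in the endoplasmic reticulum, was higher by 2.10 ± 0.16 (SE, n = 4 mice, adjusted p = 0.0121).

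Among 21 tested Hedgehog pathway genes and targets, Ptch1, Gli2 and Bcl2 were higher, none was lower and 18 did not pass. Over all genes, 0.889% were higher and 0.965% lower. The sign was kept higher by 10 and lower by 2, against 15.3% and 15% of all genes. Ptch1, the receptor that holds Smoothened back, measured 11.91 and 11.38 against 10.56 and 10.60 in untreated mice, and 8.25 and 8.78 against 7.72 and 7.77 after vismodegib. The positive array was the higher in each mouse, by 0.92 ± 0.15 (SE, n = 4 mice, adjusted p = 0.0474). The probe set checks nothing about the deletion, its other probe set was of mixed sign, and with all probe sets averaged the adjusted p was 0.0818. Gli2, the main activating Gli factor, was higher by 0.61 ± 0.10 (SE, n = 4 mice, adjusted p = 0.0482). Its call was lost with all probe sets averaged (adjusted p = 0.057) or with an intensity trend (adjusted p = 0.0609). It was also lost after cyclic loess (0.0503) or with every probe set tested (0.0532). Bcl2, which blocks apoptosis, was higher by 1.01 ± 0.13 (SE, n = 4 mice, adjusted p = 0.0305). The targets Gli1 and Hhip had mixed signs. Gli1 gaps were 0.68 and 1.38 in untreated mice and −0.14 and 0.03 after vismodegib, and those of Hhip, a decoy for Hedgehog ligands, were 2.15, 1.74, 0.40 and −0.33.

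In the growth factor and guidance lists, single members were higher, beside 0.889% of all genes called higher, 15.3% kept higher and 15% kept lower. Of 27 tested BMP and TGF-beta genes, the ligand Bmp6 (mean gap 1.19) and the latent TGF-beta binding family member Ltbp2 (1.80) were higher and none was lower. Ltbp2 measured 7.18 and 7.45 against 5.68 and 5.62, and 6.97 and 7.61 against 5.29 and 5.42 after vismodegib, so that its positive arrays all stood above its negative ones (adjusted p = 0.0115). Of 27 tested growth factor genes, Igfbp5, the platelet-derived growth factor Pdgfc (0.97) and the receptor Fgfr1 (0.86) were higher and none was lower. Of 36 axon guidance genes, the semaphorin and VEGF co-receptor Nrp2 (1.08), the ephrin receptor Ephb3 (0.72) and the semaphorin Sema5a (0.63) were higher, with 11 kept higher and 4 kept lower. Nrp2 lost its call with all probe sets averaged (adjusted p = 0.0555). Of 22 genes of D cyclins, kinase inhibitors and quiescence, Txnip, an inhibitor of thioredoxin that limits glucose uptake, was higher by 1.16 ± 0.14 (SE, n = 4 mice, adjusted p = 0.0305) and 3 were kept on each side, near the share of all genes. EGFR and ERK feedback genes, 23 tested, had none called, with 12 higher and 3 lower at an unadjusted p under 0.05 in limma, where the shares of all genes were 9.43% and 13.1%. With a treatment term in the model, 11 of the 23 were called higher and 4 lower, against 6.3% and 9.48% of all genes.

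Genes of cell division stood on the lower side. Of 29 tested cell cycle and mitosis genes, 14 were lower, none was higher and 15 did not pass, where 0.965% of all genes were lower. The lower sign was kept by 26 of 29, against 15% of all genes. The median gap was −1.04. The 14 included Mki67, whose product coats mitotic chromosomes, Cdk1 and Ccna2, the kinase and a cyclin of S phase and mitosis, Kif11, a spindle motor, and Cdc20, an activator of the anaphase-promoting complex. Also lower were Top2a, Aurkb, Anln, Cdca8, Bub1, Cenpf, Nusap1, Tpx2 and Cdca3. Hmmr, Aurka and Kif23 had mixed signs, and the mean gap of Hmmr was 0.11.

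The promoters of 5 of these genes are shown because each holds letters that are frequent in promoters of the mitosis list. Each is the stretch of 100 bases before the RefSeq start of the gene in GRCm38.p6, 5′ to 3′ on the strand of the gene. The places are chr10:69352913-69353012 for Cdk1, chr4:118437344-118437443 for Cdc20, chr11:99024190-99024289 for Top2a and chr7:135716380-135716479 for Mki67, all on the minus strand, and chr19:37376282-37376381 on the plus strand for Kif11. Capitals mark the letters of the cell cycle homology region, TTTGAA or TTCGAA, and CCAAT, each on either strand.
Cdk1: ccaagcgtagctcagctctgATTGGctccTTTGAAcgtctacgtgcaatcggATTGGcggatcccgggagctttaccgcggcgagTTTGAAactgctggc
Cdc20: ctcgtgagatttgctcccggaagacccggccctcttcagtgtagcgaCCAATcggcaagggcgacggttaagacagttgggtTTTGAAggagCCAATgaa
Kif11: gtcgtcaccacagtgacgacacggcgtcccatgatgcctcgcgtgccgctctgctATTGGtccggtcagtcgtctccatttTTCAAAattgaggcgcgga
Top2a: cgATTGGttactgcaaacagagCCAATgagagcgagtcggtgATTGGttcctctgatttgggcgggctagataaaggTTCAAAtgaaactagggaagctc
Mki67: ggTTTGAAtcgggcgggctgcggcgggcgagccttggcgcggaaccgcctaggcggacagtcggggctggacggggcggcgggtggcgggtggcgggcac

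The cell cycle homology region is known as a site of the DREAM and MuvB complexes, and CCAAT as the site of NF-Y. In the last 100 bases, the TTTGAA or TTCGAA letters were in 7 of 24 windows of the mitosis list (29.2%), 14 of 122 windows of all genes called lower (11.5%), 3.57% of windows of the DNA replication list, 3.15% of windows of genes called higher and 3.95% of all 14541 windows. In 250 bases, CCAAT was in 20 of 24 mitosis windows (83.3%), in 60.7% of DNA replication windows, in 43.4% of windows of genes called lower, in 29.1% of those called higher and in 34.5% of all windows. Both were searched after the values of the mitosis genes had been seen. The TCF/LEF letters CTTTGAT or CTTTGAA, the second of which contains TTTGAA, were in 8 of 127 windows of genes called higher (6.3%), in 3.28% of those called lower, in 12.5% of mitosis windows and in 5.8% of all windows. The Gli letters GACCACCCA were in 0 windows of the called genes and in 22 (0.151%) of all windows. A match describes these letters and is no measured site.

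Mki67 measured 8.04 and 8.64 in untreated Lgr5-positive arrays against 9.75 and 9.97, and 8.21 and 8.25 after vismodegib against 9.39 and 9.10. All 4 positive arrays lay below all 4 negative ones, and the mean gap was −1.27 ± 0.15 (SE, n = 4 mice), 2.41-fold, with an adjusted p of 0.0286. Ccna2 measured 8.20 and 8.75 against 9.77 and 10.17, and 8.21 and 8.62 against 9.73 and 9.32, again with no overlap. Its mean gap was −1.31 ± 0.17 (SE, n = 4 mice). Kif11 measured 6.91 and 7.29 against 8.33 and 8.51, and 6.79 and 7.06 against 8.47 and 8.05 after vismodegib, a mean gap of −1.33 ± 0.13 (SE, n = 4 mice, adjusted p = 0.0221). Outside the list, the mitotic kinase Pbk (−2.11), the centriole duplication factor Stil (−1.85), the kinetochore scaffold Knl1 (−1.49) and the phosphatase Cdkn3 (−1.55) were lower too. In the DNA replication list, of 27 tested, 6 were lower and none was higher, where 0.965% of all genes were lower. The lower sign was kept by 22, against 15% of all genes, and the median gap was −0.69.

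Pole, the catalytic subunit of the leading-strand polymerase, had gaps of −1.27, −1.27, −1.25 and −1.19. Its mean was −1.25 ± 0.09 (SE, n = 4 mice, adjusted p = 0.0115). Mcm5, of the replicative helicase, measured 9.15 and 9.36 against 10.71 and 10.76 in untreated mice, and 9.65 and 9.41 against 10.29 and 10.48 after vismodegib. The positive arrays stood below the negative ones without overlap, by −1.17 ± 0.16 (SE, n = 4 mice, adjusted p = 0.0388). Mcm2 (−0.93), Mcm3 (−1.03), the DNA ligase Lig1 (−0.94) and the ribonucleotide reductase subunit Rrm1 (−0.91) were the other lower members. With all probe sets of a gene averaged, Mcm3 (adjusted p = 0.0687), Mcm5 (0.0594) and Anln (0.0542) lost their calls. Pcna, the polymerase clamp, had a mean gap of −0.19 and mixed signs. With a treatment term, 25 of the mitosis genes and 19 of the replication genes were called lower and none higher, where 9.48% of all genes were called lower.

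Of 24 tested genes of epidermal differentiation, which act in the upper layers of the epidermis, 21 kept the lower sign and none kept the higher, against 15% and 15.3% of all genes, and the median gap was −1.45. None was called over the 4 mice in limma. At an unadjusted p under 0.05, 0 were higher and 22 lower, against 9.43% and 13.1% of all genes. With a treatment term 19 were called lower, against 9.48% of all genes. The gap change was called for 8 of the 24 and did not pass for 16, against 2.08% called over all genes. Krt1, a keratin of the spinous layer, measured 8.61 and 9.87 in untreated Lgr5-positive arrays against 12.35 and 12.51, and 10.87 and 11.39 after vismodegib against 11.87 and 11.81. Positive arrays lay below negative ones throughout, with a mean gap of −3.19 in untreated mice and −0.71 in treated ones. The mean gap was −1.95 ± 0.54 (SE, n = 4 mice, adjusted p = 0.113, or 0.00224 with a treatment term). Casp14, a protease of cornification, had a mean gap of −2.42 (adjusted p = 0.101) and Krt10, the partner of Krt1, one of −1.45 (adjusted p = 0.074).

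Other genes of barrier and lipid metabolism did pass. Klk8, a kallikrein protease, measured 7.18 and 7.81 against 9.98 and 9.67 in untreated mice, and 8.59 and 8.31 against 9.72 and 9.69 after vismodegib. Its positive arrays were below its negative ones without overlap, and its mean gap was −1.79. Spink5, a kallikrein inhibitor, was lower by −1.21 ± 0.18 (SE, n = 4 mice, adjusted p = 0.0395), although all 4 of its positive values lay under that level of 4.85. The ceramidase Acer1 (−1.77), the sterol sulfotransferase Sult2b1 (−1.48) and the fatty acid hydroxylase Cyp4f39 (−1.60) were lower as well. In the 18 tested cholesterol and fatty acid synthesis genes, Dhcr7 (−0.94), Sqle (−0.87) and Fdps (−0.84), enzymes of the sterol pathway, were lower and none was higher. Over all genes, 0.965% were called lower and 0.889% higher. Of the 18, 10 kept the lower sign and 0 the higher, against 15% and 15.3% of all genes. Of 26 tested adhesion and junction genes, plakoglobin Jup (−0.57) and Nectin4 (−0.73) were lower and none was higher, with 10 kept lower and 3 kept higher. Jup lost its call after cyclic loess (adjusted p = 0.0562), with a robust prior (0.0517) and with every probe set tested (0.0564). Nectin4 lost its call with all probe sets averaged (0.0582). In 16 tested Notch genes the receptor Notch3 was lower by −1.20 ± 0.14 (SE, n = 4 mice, adjusted p = 0.0269). Among 19 glycolysis and hypoxia genes none was called, while 13 kept the lower sign and 1 the higher. At an unadjusted p under 0.05 in limma, 1 was higher and 10 lower, against 9.43% and 13.1% of all genes.

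Il1r2, a decoy receptor that traps interleukin 1, was the called lower gene with the largest gap. It measured 4.96 and 4.72 in untreated Lgr5-positive arrays against 7.32 and 7.20, and 6.13 and 6.27 after vismodegib against 8.29 and 8.23. Both populations stood higher in the treated mice, while the gap stayed at −2.36, −2.48, −2.17 and −1.97, with no overlap of positive and negative arrays. The mean was −2.24 ± 0.12 (SE, n = 4 mice), 4.73-fold, with an adjusted p of 0.00459. The positive value of untreated mouse 2, 4.72, lay under 4.85, the level used to filter dim genes. The size of that gap is therefore uncertain. Il1b, the interleukin itself, was lower by −1.47 ± 0.18 (SE, n = 4 mice, adjusted p = 0.0305), with gaps of −1.23, −2.16, −1.32 and −1.16. These were the only called genes among 27 tested chemokines, cytokines and receptors, where 0.965% of all genes were called lower. In the 15 tested MHC and antigen presentation genes none was called. At an unadjusted p under 0.05 in limma 0 were higher and 5 lower, against 9.43% and 13.1% of all genes. The class II chain H2-Aa had gaps of −2.81, −5.01, −0.79 and −0.41. Its positive value in untreated mouse 2, 4.61, lay under 4.85, and its other probe sets were of mixed sign.

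Macrophages and Langerhans cells, which the sort did not exclude by a named marker, also express Il1b and MHC class II. The mean of their 24 tested markers was 6.08 and 5.75 in untreated Lgr5-positive arrays against 6.75 and 7.09, and 8.50 and 8.03 after vismodegib against 7.74 and 7.56. This mean was lower in the positive population of untreated mice and higher in that of treated mice, but its members differed. Of the 24, 20 were of mixed sign, 3 were kept lower (Cd207, Cd74 and H2-Aa) and Cd68 was kept higher. The sign of H2-Aa was kept only in the probe set used. Over all genes 15% were kept lower and 15.3% higher. Cd74, the MHC class II invariant chain, had gaps of −2.08, −3.48, −0.35 and −0.63, and Cd68, a lysosomal protein of macrophages, gaps of 0.03, 0.64, 2.53 and 1.48. None of the 24 was called. At an unadjusted p under 0.05 in limma 1 was higher and 3 lower, near or below the 9.43% and 13.1% of all genes. That test of the mean gap misses markers whose gap turns between treatments. The gap change was called for 6 of the 24, against 2.08% of all genes. With a treatment term, 3 were called higher and 6 lower, against 6.3% and 9.48% of all genes. Cd163 was dim on all arrays, and Cd207, the Langerhans cell lectin, had a mean gap of −0.82 (adjusted p = 0.0504). The mean of the 13 tested T cell markers lay between 5.99 and 6.29 over the arrays. The part of these cells in the interleukin and MHC values was not tested.

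**Figure D3:**
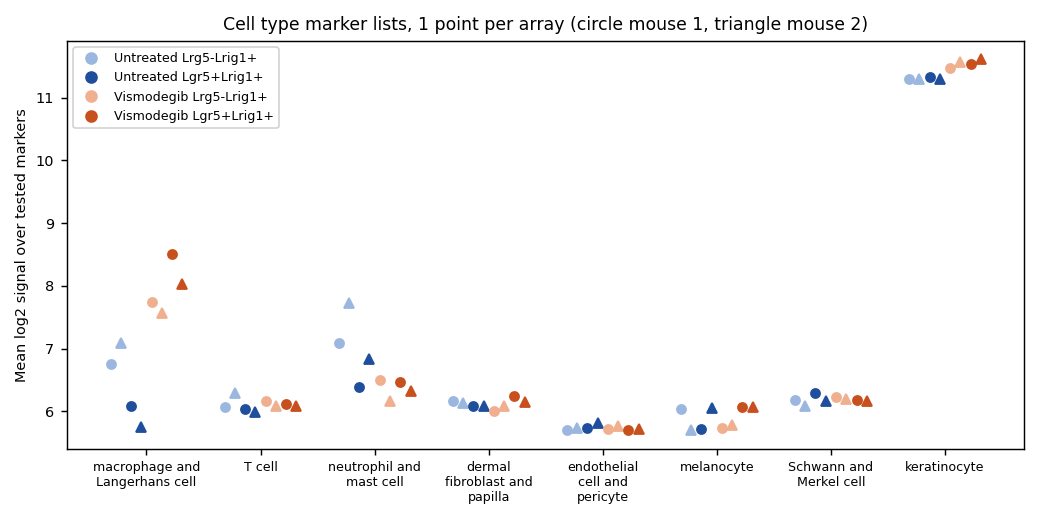
Mean log2 signal (vertical axis, which does not start at 0) of the tested markers of 8 cell types, 1 point per array, circles for mouse 1 and triangles for mouse 2, pale for Lrg5-Lrig1+ and dark for Lgr5+Lrig1+. Keratinocyte markers lie between 11.3 and 11.61, and macrophage and Langerhans cell markers between 5.75 and 8.50, highest in the treated Lgr5-positive arrays.

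**Figure D4:**
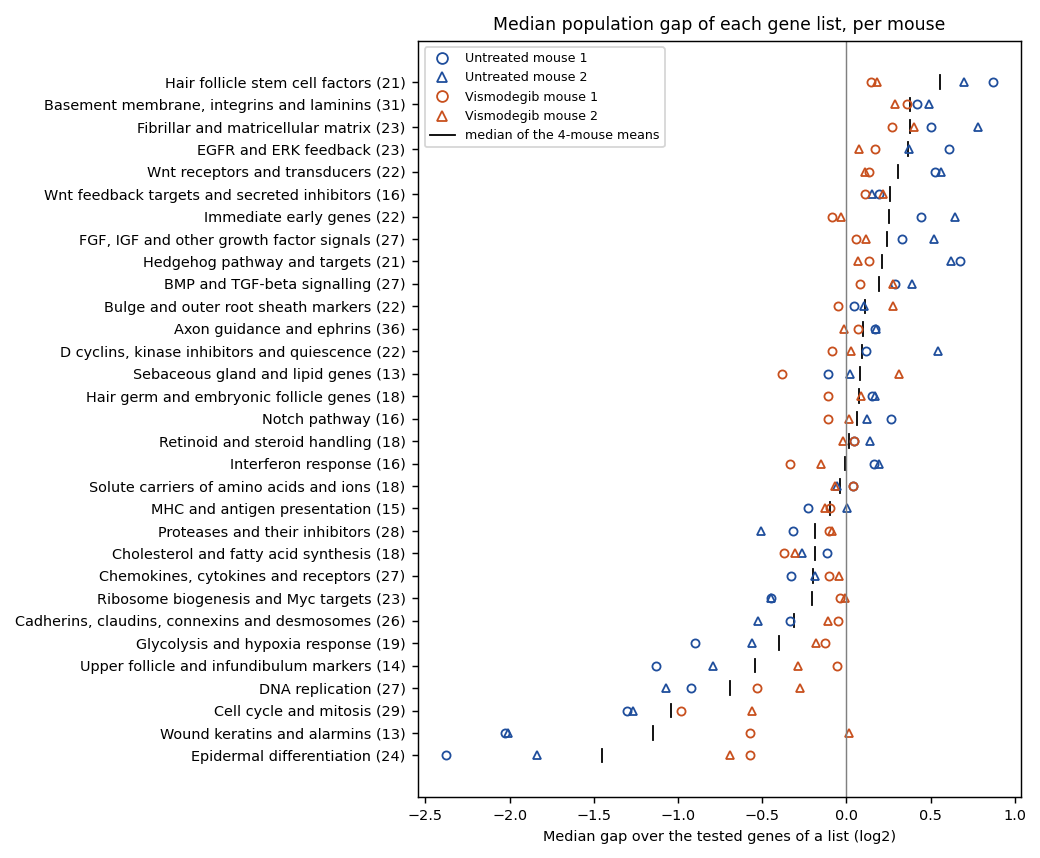
Median gap in log2 units (horizontal axis) over the tested genes of each of the 31 function lists, with the number tested in brackets, 1 symbol per mouse, and a bar at the median of the 4-mouse means. Hair follicle stem cell factors (0.56) lie at one end, and mitosis (−1.04), wound keratins (−1.15) and epidermal differentiation (−1.45) at the other. The untreated mice, in blue, usually lie farther from 0. The wound keratin list was not kept across treatments. Its medians were −2.03 and −2.01 in untreated and −0.57 and 0.01 in vismodegib mice, and 7 of its 13 genes were of mixed sign.

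Genes chosen in the mice of one treatment were then read in those of the other, which had no part in the choice. Of 257 genes with a gap above 1 in both untreated mice, 183 (71.2%) had a gap above 0 in both vismodegib mice, against 29.5% of all genes, and 13 were below 0 in both. Of 448 genes with a gap below −1 in both untreated mice, 328 (73.2%) were below 0 in both vismodegib mice, against 30.3% of all genes, and 33 were above 0 in both. In the other order, 49 of 64 genes (76.6%) above 1 in both vismodegib mice were above 0 in both untreated mice, against 38.8% of all genes. For the lower side this held for 21 of 22 genes (95.5%), against 35.5%. These shares are a description, since genes of a sample are not independent.

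The gaps were smaller in the treated mice. Their SD over all genes was 0.579 and 0.601 in the untreated mice and 0.412 and 0.33 in the vismodegib mice. Among the 128 called higher genes the median gap was 1.24 in untreated and 0.89 in vismodegib mice, and 92 had the larger gap in untreated mice. Among the 139 called lower genes the medians were −1.20 and −0.86, and 121 had the larger gap in untreated mice. In a test of the change itself, 300 of all genes (2.08%) differed between treatments, 207 with a positive and 93 with a negative change, and 125 of these were among the 4366 genes of kept sign. Only 4 were among the 267 called genes, whose test across mice leaves out genes with an uneven gap: Wif1, Slc7a2, Slc6a20a and Trf. Slc7a2, a transporter of cationic amino acids, had gaps of 2.27 and 2.17 in untreated and 0.78 and 1.21 in treated mice. Its mean gap lost its call with all probe sets averaged (adjusted p = 0.0717), after cyclic loess (0.0537) and with a robust prior (0.0517). Slc6a20a, a transporter of imino acids, had gaps of −2.72 and −2.68, then −1.56 and −1.54. Of its 4 positive values, 3 lay under 4.85, the level used to filter dim genes, so the size of its gaps and of their change is uncertain. The iron carrier Trf, named after its values were seen, had gaps of 2.26 and 2.24, then 1.20 and 1.22. A gap change of the other genes that misses the threshold does not show that the gap was equal, with 2 mice a treatment.

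**Figure D5:**
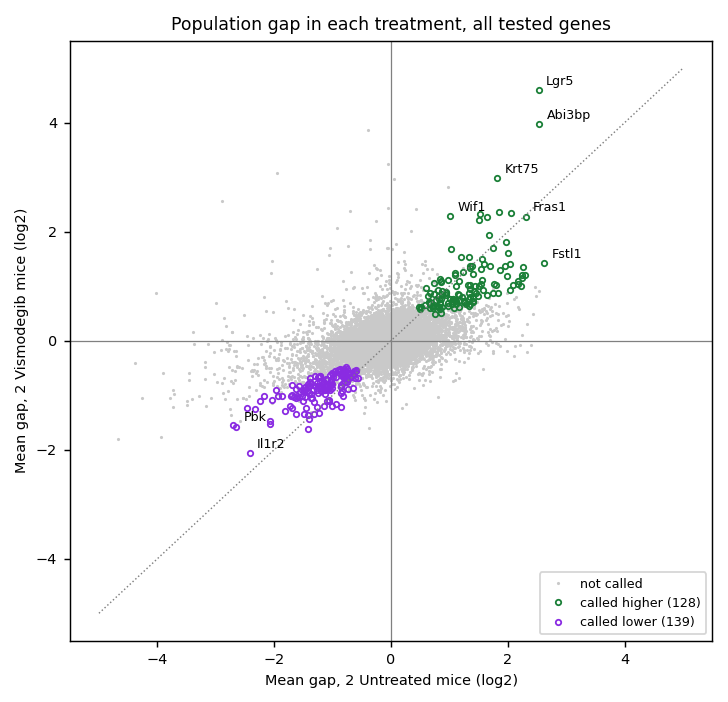
Mean gap in the 2 Untreated mice (horizontal axis, log2) against that in the 2 Vismodegib mice (vertical axis, log2) for the 14403 tested genes, with the 128 genes called higher in green, the 139 called lower in purple and a dotted line of equal gaps. Called genes lie in the upper right and lower left, mostly nearer to the horizontal axis than the line; Lgr5, Abi3bp, Krt75 and Wif1 lie above it.

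The calls can also be set beside probe sets that did not enter the test. Of 136 other probe sets for 77 of the genes called higher, 110 (80.9%) were higher in all 4 mice, against 15% of such probe sets over all genes. Of 69 for 51 of the genes called lower, 51 (73.9%) were lower in all 4 mice, against 13.5%. They share the RNA of the same arrays and so are no further replicates.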

How the data were processed

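Values are log2 signals that the authors deposited after RMA, per the submitters' processing notes; the sources used here name no version, probe definition or genome build. They were used as deposited. Of 45141 probe sets, 28898 mapped to 1 symbol, 551 to several and 15692, controls included, to none. Of 17097 genes, 7180 had several probe sets, and the one with the highest mean was used. A gene was tested if 2 or more arrays exceeded 4.85, percentile 25 of the deposited values, which kept 14403 and set aside 2694. Probe sets ending in s or a can also bind related transcripts or variants.

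Both arrays of a mouse carry its number in the titles, so gaps were taken within mice. Limma 3.58.1 in R 4.3.3 (lmFit, eBayes, two-sided) tested the 4 gaps without covariates, with 3 residual and 3.19 prior degrees of freedom, and the gap change with a treatment term, with 2 and 4.56. P-values had the Benjamini-Hochberg adjustment over all tested genes. They and the SEs, of mean gaps and of gap changes, rest on the spread between these 4 mice, moderated by limma toward that of all genes. An exact sign-flip test of 4 mice cannot go below p = 0.125. The scripts were tested on simulated data. The number of arrays limits the precision.

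Named genes were Lgr5, Lrig1, Ptch1, the 15 largest called gaps a direction, up to 4 members a list, called ones first, and up to 5 gap changes a direction, which gave 162 genes; others are list members or were named after their values were seen. The members and the 39 lists were chosen with earlier results of these data known. Promoter windows, of 11489 tested genes, are RefSeq's in GRCm38.p6.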

Additional observations from a re-analysis of the deposited data

Results flagged for a closer look

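For 25 named genes the gap differed between treatments by limma's test of the change (vismodegib minus untreated, log2, 2 mice each, adjusted p under 0.05). Over all genes 2.08% passed, and 10 of the 25 (Abca12, Car2, Cotl1, Nipal1, Tgm3, B930095G15Rik, Col2a1, Fhl1, Mia and Spry4) were named for this change, so the count supports nothing. Negative gaps lay closer to 0 in treated mice for the barrier and keratinisation genes Abca12 (change 3.21), Calm4 (1.92), Klk11 (1.74), Krt1 (2.48), Krt6a (1.38), Sprr1b (2.34) and Tgm3 (2.79). The same held for Car2 (2.82), Cotl1 (2.82), Nipal1 (3.98), Igfbp2 (1.99), Pfkl (1.42), the transporters Slc16a1 (1.92) and Slc6a20a (1.15), and the class II genes H2-Ab1 (1.40) and H2-Eb1 (1.34). The size for Cotl1 rests on the probe set used, with untreated gaps of −3.14 and −2.91. Among its other probe sets the largest untreated gaps were −0.97 and −0.87, with −0.28 and −0.35 after vismodegib, and another was of mixed sign. Some values lay under 4.85, the level used to filter dim genes, among them both untreated positive values of Abca12 (4.54 and 4.79), 1 of Car2 (4.74) and 1 of Nipal1 (4.54), 3 positive values of Slc6a20a, and 3 treated values of Nrcam and 1 of Lef1, so the size of these changes is uncertain. Beside the class II genes, macrophage and Langerhans cell markers averaged 6.08 and 5.75 in untreated and 8.50 and 8.03 in treated Lgr5-positive arrays; their part was not tested. Positive gaps were smaller in treated mice for B930095G15Rik (−1.66), Col2a1 (−1.66), Fhl1 (−1.73), Lef1 (−1.16), Mia (−1.93), Nrcam (−1.54), Slc7a2 (−1.22) and Spry4 (−2.03). Wif1 was the exception on that side, with a gap larger by 1.27.

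In 4 named genes the gap of 1 mouse stood apart from the other 3, by the gap to its nearest neighbour as a share of the whole range. The share was 0.929 for Ephb3 (untreated mouse 1, 0.96 against 0.62 to 0.65), 0.867 for Gbp2 (vismodegib mouse 1, −1.66), 0.834 for Gjb6 (vismodegib mouse 2, 1.24) and 0.842 for Il1b (untreated mouse 2, −2.16). Chance alone marks about 5% of groups of this size.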

How the results depend on the processing

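The replicate block (the mouse) is part of the test of 128 higher and 139 lower genes. Without a replicate block there were 783 and 1206, with the block and a treatment term 907 and 1365, and with the mouse as a random block (correlation 0.0823) 906 and 1406. The treatment-term calls included all 128 and all 139, and those without the block 120 and 135. No filter on dim genes gave 59 and 55, a filter at the median 224 lower, and a mean gap of at least 1 left 70 and 74. Leaving out each mouse gave 2 to 56 higher and 0 to 133 lower calls, and 2592 to 3466 and 2471 to 3615 genes of kept sign.

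For the gap change, 207 positive and 93 negative calls became 55 and 9 without a filter, and 59 negative without the block. Leaving out a mouse gave 5 to 389 positive and 0 to 225 negative; the lone mouse of a treatment is then assumed to vary like the others. Of genes chosen in untreated mice, 59.9% (beyond 0.5) and 78.9% (beyond 2) of the higher and 59.5% and 68.2% of the lower kept their sign in treated mice; chosen beyond 2 in treated mice, 64.3% of the higher did, and no gene was lower. No named gene changed its direction under any setting, but only cyclic loess and the averaging of probe sets could have changed it. Each named gene kept its sign in every mouse, so leaving out a mouse cannot reverse its mean gap. The filters, blocks, treatment term and priors leave the mean gap as it was, and so does testing every probe set. Of 72 named called genes, 37 kept the call without a filter, 59 with all probe sets averaged, 67 after cyclic loess and 2 to 36 without a mouse. The causes were not tested.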

Other observations

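Some called genes outside the lists, chosen after their values were seen, are known to respond to hormones or stress. Fkbp5, a co-chaperone of the glucocorticoid receptor, measured 10.27 and 10.07 in untreated Lgr5-positive arrays against 8.68 and 8.99, and 8.85 and 8.98 against 8.17 and 7.90 after vismodegib, a mean gap of 1.11 ± 0.16 (SE, n = 4 mice, adjusted p = 0.0388). The transcription factor Zbtb16, known as a glucocorticoid-induced gene like Fkbp5, had a mean gap of 1.49 (adjusted p = 0.0474). Also higher were Pik3r1, the regulatory subunit of phosphoinositide 3-kinase (1.43, adjusted p = 0.0201), the insulin receptor Insr (0.69, adjusted p = 0.0375), the p53-inducible Trp53inp1 (1.06, adjusted p = 0.035) and the stress-induced Nupr1 (1.04, adjusted p = 0.0238). No list of glucocorticoid or p53 targets was tested.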
